A study of Mus musculus with 6 samples.

Results

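The genes described here encode the parts of non-muscle myosin II and the kinase that activates it: the heavy chains Myh9, Myh10 and Myh14, the essential light chain Myl6, the regulatory light chains Myl9, Myl12a and Myl12b, and the myosin light chain kinase Mylk. They were chosen by gene symbol in the annotation of the count tables, and all 8 were among the 17500 genes of the deposited series table. All 8 also passed the filter on low counts, among 15610 genes tested. RNA was sequenced in bulk from LT-HSCs, the long-term repopulating blood stem cells, of wild-type (WT) male mice of strain C57/Bl6 aged 22 to 24 months. LT-HSCs were gated as Lin-, Sca1+, cKit+, CD48- and CD150+ cells. From each of 3 mice, the 10% of these cells with the highest surface CD61 (CD61High) and the 10% with the lowest (CD61Low) were taken as 5000 cells each, which gave 3 libraries per gate. No young, female or unsorted sample was analysed here. Each title names 1 mouse although the sorting protocol mentions pools, so a mouse number is taken here as 1 animal, and p-values measure the spread between these libraries.

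Non-muscle myosin II is an actin motor built from a pair of heavy chains, each carrying an essential and a regulatory light chain. The heavy chain sets the isoform: Myh9 gives myosin IIA, Myh10 myosin IIB and Myh14 myosin IIC, which differ in how long they stay bound to actin and where in the cell they assemble. Phosphorylation of the regulatory light chain, by the calmodulin-dependent kinase encoded by Mylk among others, lets the molecule form filaments and contract, and this contractility pulls on integrin adhesions and drives cytokinesis. In the blood lineage, mutation of human MYH9 causes a disorder with few and large platelets, and human MYH10 is switched off by RUNX1 as megakaryocytes mature. CD61 is integrin beta 3, so the comparison of the gates asks which of these contractile genes differ between stem cells with much and with little of that integrin on their surface.

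The 3 regulatory light chains carry the same pair of phosphorylated residues, and the start of their coding sequences is shown to make plain how alike the genes are, which bears on how reads can be assigned to them. Each line gives the first 72 coding bases (24 codons) of the annotated GRCm38 transcript, and the capitals mark the threonine and serine codons, 19 and 20 with the start codon as 1, that the light chain kinase acts on.
Myl9: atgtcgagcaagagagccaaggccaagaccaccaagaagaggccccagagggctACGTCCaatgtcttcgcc
Myl12a: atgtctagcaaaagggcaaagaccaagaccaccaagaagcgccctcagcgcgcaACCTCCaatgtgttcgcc
Myl12b: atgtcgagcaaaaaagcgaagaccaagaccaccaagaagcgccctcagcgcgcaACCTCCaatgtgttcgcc
Over these 72 bases Myl12a and Myl12b differed at 4, and Myl9 differed from them at 13 and 12. Over the whole coding sequence of 519 bases, Myl12a and Myl12b were 96.5% identical, with a longest identical run of 105 bases. Myl9 was 85.5% identical to Myl12a and 86.3% to Myl12b, with runs of at most 35 bases. The heavy chains are further apart, at 72.5% between Myh9 and Myh10, 67.0% between Myh9 and Myh14 and 64.8% between Myh10 and Myh14.

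Myh14 and the other heavy chain genes lie on different chromosomes, and their upstream sequences are printed because Myh14 is the heavy chain whose gates did not overlap. The windows are the 250 bases before the RefSeq transcription start (build GRCm38.p6), at chr7:44670844-44671093 on the minus strand for Myh14, chr11:68691665-68691914 on the plus strand for Myh10 and chr15:77842176-77842425 on the minus strand for Myh9. The Myh14 and Myh9 windows adjoin those genes as annotated for the counts. The Myh10 window lies inside its annotated gene, which starts at 68691559, and is upstream of the RefSeq start only. Capitals mark matches on either strand to CCAAT and to GGGCGG, which did not overlap each other.
Myh14: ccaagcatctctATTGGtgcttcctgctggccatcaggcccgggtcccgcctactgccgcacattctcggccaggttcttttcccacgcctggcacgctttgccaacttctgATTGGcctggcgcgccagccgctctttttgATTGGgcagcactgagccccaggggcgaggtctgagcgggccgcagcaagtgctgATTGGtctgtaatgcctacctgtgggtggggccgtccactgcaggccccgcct
Myh10: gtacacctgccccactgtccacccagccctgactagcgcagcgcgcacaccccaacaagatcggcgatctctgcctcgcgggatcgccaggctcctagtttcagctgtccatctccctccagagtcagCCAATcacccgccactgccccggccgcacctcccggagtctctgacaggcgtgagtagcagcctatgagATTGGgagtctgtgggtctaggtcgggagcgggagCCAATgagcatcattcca
Myh9: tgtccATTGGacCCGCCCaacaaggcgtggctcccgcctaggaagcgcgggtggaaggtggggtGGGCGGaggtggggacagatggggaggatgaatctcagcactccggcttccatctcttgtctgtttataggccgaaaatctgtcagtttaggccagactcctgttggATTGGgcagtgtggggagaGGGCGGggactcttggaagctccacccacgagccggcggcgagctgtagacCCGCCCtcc
The windows had like base composition, with 14, 15 and 14 CpG sites in Myh14, Myh10 and Myh9 and 63.6%, 62.8% and 62.4% G or C. The Myh14 window held 4 matches to CCAAT, the Myh10 window 3 and the Myh9 window 2. At least 1 match was present in 33.8% of 32851 promoter windows of the same length, and 4 or more in 0.840%; this motif was added after the sequences had been seen. GGGCGG occurred 4 times before Myh9 and not in the windows of Myh10 or Myh14, and it was present in 32.7% of all windows. The motif AGATAA of the GATA factors was in none of the 3 windows and in 9.99% of all windows. Nor did the 3 hold the RUNX motif TGTGGT, present in 14.0% of all windows. A CArG box, the serum response factor motif, was absent from the 3 as well and present in 1.47%. A match is a run of letters and not a bound site.

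Between 21354130 and 26398090 reads were counted on genes in each library. CPM is the read count scaled to a common library total. A count of 0 allows up to 3 counts, or 0.114 to 0.140 CPM by library totals alone. The CPM values of genes given below also carry edgeR's TMM scaling factors, 0.767 to 1.11, so this floor holds for them only approximately. Transcripts of mature cells that the sort was set to remove were present to different degrees. Neutrophil markers (10 genes, none at 0 in any library) made up 0.504% of the CD61High and 2.01% of the CD61Low counts of mouse 1. In mouse 2 they made up 6.83% and 11.1%, and in mouse 3 0.0236% and 0.162%. The erythroid markers (8 of 8 detected in every library) ranged from 0.0582% to 1.38% in CD61High and from 0.105% to 2.66% in CD61Low, the monocyte markers (6 of 6) 0.0404% to 0.893% and 0.0554% to 1.40%, and the B lineage markers (6 of 6) 0.00544% to 0.273% and 0.00686% to 0.321%, each highest in mouse 2. With the mouse as a block these 4 lists were lower in CD61High at an unadjusted p under 0.05 in 8 of 10 neutrophil, 8 of 8 erythroid, 5 of 6 monocyte and 5 of 6 B lineage genes, with median log2 fold changes of -1.95, -1.25, -1.73 and -1.20. Of all genes tested, 12.8% were lower at that threshold. No gene of these 4 lists passed adjustment over all genes in edgeR. The LT-HSC markers, among them Procr, Hlf and Mecom, were all detected in every library. They summed to 1675 to 3021 CPM in CD61High and 1290 to 4025 CPM in CD61Low, with the lowest value of each gate in mouse 2. With the block, 2 of the 10 were called lower in edgeR, where 0.16% of genes tested were. At an unadjusted p under 0.05, 5 were lower and 1 higher, where 12.8% and 8.01% of genes tested were, with a median of -0.44. Ctnnal1 was higher in CD61High of each mouse (105, 53.2 and 123 CPM against 58.2, 20.5 and 72.2 CPM). The smooth muscle and stromal list summed to 44.2 to 227 CPM in CD61High and 63.7 to 291 CPM in CD61Low, where Myh11, the defining smooth muscle myosin, was at 0 in 5 of 6 libraries and at 0.0372 CPM in the other. Endothelial markers summed to 158 to 253 and 111 to 273 CPM in the gates, and megakaryocyte and platelet markers to 1684 to 2842 and 931 to 2625 CPM. Of the latter, 10 of 12 were tested and 3 were called higher with the block, where 0.0961% of genes tested were. At an unadjusted p under 0.05, 7 were higher and 0 lower, where 8.01% and 12.8% of genes tested were, with a median of 1.31. Clec1b was lower in CD61High of each mouse (4.69, 4.80 and 4.80 CPM against 6.02, 5.44 and 8.75 CPM). Gp6, the platelet collagen receptor, was at 0 in 3 of 6 libraries. The part of any of these cells in the results below was not tested.

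Myh14, the heavy chain of myosin IIC (ENSMUSG00000030739.18, GRCm38 chromosome 7, 44605803 to 44670843, minus strand), was low in CD61High and higher in CD61Low in every mouse. Its level was 1.72, 1.05 and 2.58 CPM in CD61High of mice 1, 2 and 3, against 16.2, 4.21 and 18.2 CPM in CD61Low. These values rest on 40, 24 and 70 reads and on 443, 85 and 488 reads. The highest CD61High library was below the lowest CD61Low library, so the gates did not overlap, and CD61Low of mouse 2 stood much nearer to the CD61High libraries than the other CD61Low libraries did. The mean of Myh14 over 3 libraries was 1.78 CPM (SD 0.771) in CD61High, against 12.8 CPM (SD 7.55) in CD61Low. Within mice, CD61Low was 9.01, 3.80 and 6.85 times CD61High in mice 1, 2 and 3, with a prior count of 2 added to both.

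With the mouse as a block, Myh14 fell in CD61High by 2.71 on the log2 scale (SE 0.33), with an adjusted p of 0.0464 in edgeR's quasi-likelihood test over all 15610 genes. Without the block the estimate was -2.84 (SE 0.67) and Myh14 was not called (adjusted p = 0.652, unadjusted p = 0.00526). The unblocked test called no gene (0.0% of genes tested, lowest adjusted p 0.652, 1023 genes or 6.55% at an unadjusted p under 0.05, and 230 genes or 1.47% by DESeq2), and the blocked test called 40 genes (0.256%), of which 25 were lower (0.16%) and 15 higher (0.0961%) in CD61High. Myh14 was the only member called with the block, 1 of 8. By the size of its blocked estimate it stood at position 60 from the lowest among the genes tested.

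The blocked call of Myh14 depended on the animals and on the scaling. It held without mouse 2 (-3.02, adjusted p = 0.0189, with 4.77% of genes called). The call ended without mouse 1 (-2.45, adjusted p = 0.284), without mouse 3 (-2.66, adjusted p = 0.146), with upper-quartile factors (adjusted p = 0.0648) and with library totals alone (adjusted p = 0.156). In that order, the fits where it ended called 0, 7, 8 and 0 genes in all, so few or no genes of any kind were called there. In bulk samples, fewer cells that express a gene and less RNA of it per cell cannot be told apart. Beside Myh14, the neutrophil markers were also a larger share in CD61Low of every mouse, and in mouse 2, where they took the largest share, Myh14 was at its lowest in both gates. These markers took at most 2.01%, 11.1% and 0.162% of counts in mice 1, 2 and 3. The differences in Myh14 there were -3.17, -1.93 and -2.78 on the log2 scale. The part of neutrophils in the Myh14 values was not tested. The antisense gene 2310016G11Rik covers 60 of the 7273 exon bases of Myh14 and had 0 to 8 reads per library.

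**Figure D1:**
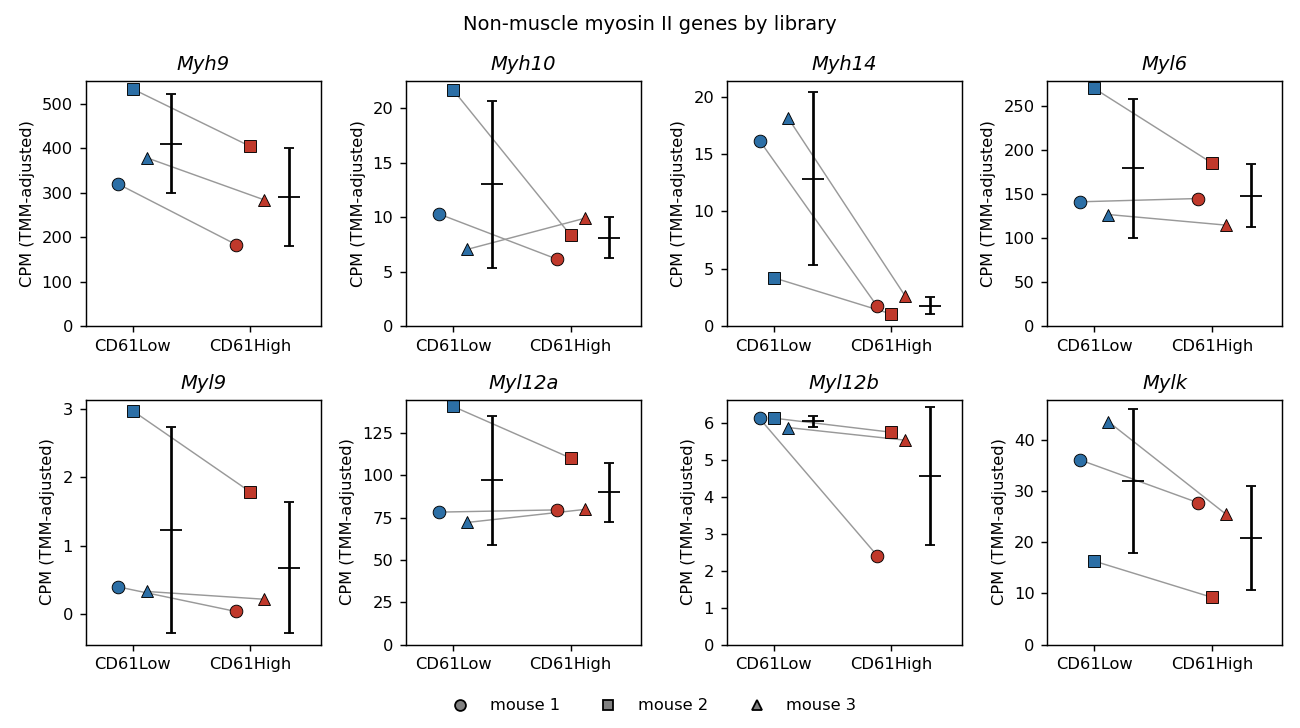
TMM-adjusted CPM (y axes, linear) of the 8 genes in CD61Low and CD61High, 1 point per library with lines joining the libraries of a mouse; the bars beside the points are the mean and SD over 3 libraries. Myh14 separates the gates (1.05 to 2.58 CPM against 4.21 to 18.2 CPM), and so, narrowly, does Myl12b (2.41 to 5.76 CPM against 5.88 to 6.14 CPM). For Myh9, Myh10, Myl6, Myl9, Myl12a and Mylk the gates overlap.

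Myh9, the heavy chain of myosin IIA and the main isoform in blood cells (ENSMUSG00000022443.17, chromosome 15, 77760587 to 77842175, minus strand), had 183, 404 and 284 CPM in CD61High of mice 1, 2 and 3 and 319, 533 and 379 CPM in CD61Low. It was lower in CD61High within each mouse, but CD61High of mouse 2 exceeded CD61Low of mice 1 and 3, so the gates overlapped. The blocked log2 fold change was -0.54 (SE 0.14) at an adjusted p of 0.117 in edgeR, and the unblocked one -0.499 (SE 0.34) at 0.864. The libraries of mouse 2, with the most neutrophil transcripts, had the highest Myh9 of each gate, and the part of those cells in the level was not tested.

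Myh10, the heavy chain of myosin IIB (ENSMUSG00000020900.15, chromosome 11, 68691559 to 68816632, plus strand), had 6.15, 8.33 and 9.90 CPM in CD61High and 10.3, 21.7 and 7.04 CPM in CD61Low of mice 1, 2 and 3. The direction differed between animals: it was lower in CD61High of mice 1 and 2, by 0.73 and 1.37 on the log2 scale, and higher by 0.49 in mouse 3. Its blocked log2 fold change of -0.55 (SE 0.38, adjusted p = 0.446) moved to -0.14 (adjusted p = 0.855) without mouse 2.

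The 3 heavy chains can be set against each other within a library, where library scaling has no part. In reads per kilobase of exon that no other gene covers, Myh9 made up 94.5%, 97.1% and 94.4% of the heavy chains in CD61High and 88.4%, 94.0% and 90.2% in CD61Low of mice 1, 2 and 3. Myh14 made up 1.59%, 0.450% and 1.54% in CD61High and 8.03%, 1.33% and 7.76% in CD61Low. Myh10 made up 2.47% to 4.07% and 2.07% to 4.72%. Thus Myh14 was below Myh10 in all 3 CD61High libraries and in CD61Low of mouse 2, and above it in CD61Low of mice 1 and 3.

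Per kilobase of merged exons, the log2 ratio of Myh14 to Myh9 was -6.54 ± 1.06 (SD, n = 3) in CD61High and -4.39 ± 1.53 in CD61Low, a difference of -2.15. CD61High minus CD61Low was -2.43, -1.61 and -2.40 in mice 1, 2 and 3. The ranges of the gates overlapped, since the ratio in CD61Low of mouse 2 (-6.16) was below those of CD61High of mice 1 and 3 (-5.91 and -5.95). The exact two-sided permutation test gave p = 0.30 (0.45 after Benjamini-Hochberg adjustment over the 3 ratios), where 3 against 3 libraries cannot go below 0.10. An exact sign-flip test of the within-mouse differences gave 0.25, the smallest p that 3 pairs allow.

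For Myh14 to Myh10 the difference was -2.14, from 0.41 ± 1.98 in CD61Low to -1.73 ± 0.64 in CD61High (SD, n = 3; exact permutation p = 0.30, adjusted 0.45). Within mice it was -2.49, -0.63 and -3.31. The ratio of Myh10 to Myh9 had a mean difference of -0.0048, with 0.058, -0.98 and 0.91 in the mice, so that its sign differed between animals (SD of the 3 differences 0.95, exact permutation p = 1.0).

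**Figure D2:**
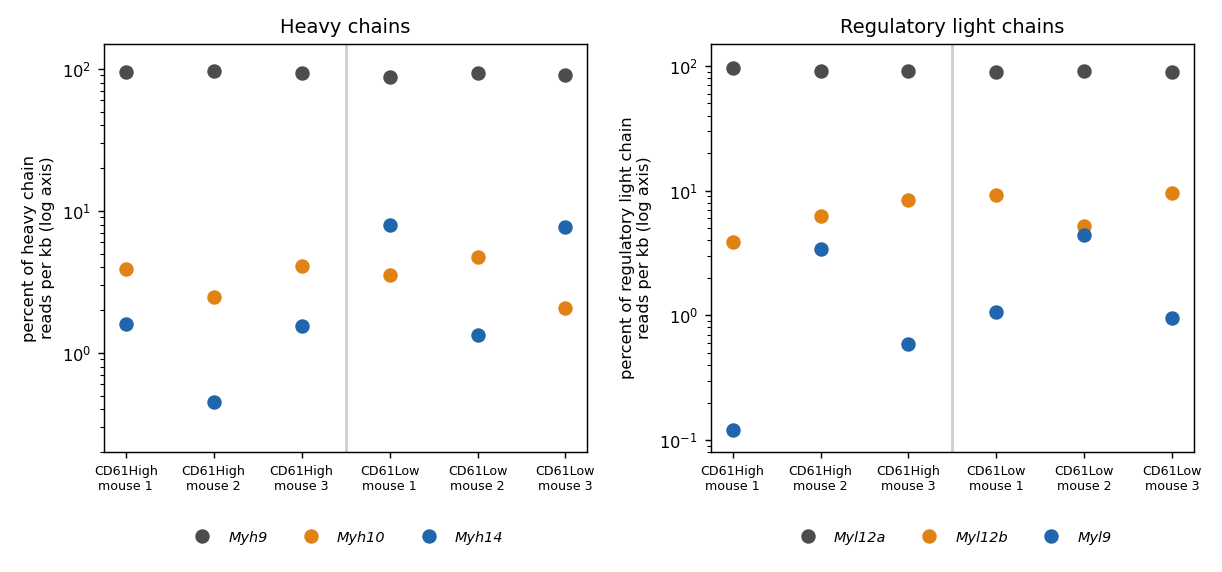
Share of each gene (y axes, percent, log scale) among the 3 heavy chains (left) and the 3 regulatory light chains (right) in each library, in reads per kilobase of exon that no other gene covers; 1 point per gene and library. Myh14 lies at 0.450% to 1.59% in CD61High and at 1.33% to 8.03% in CD61Low, and Myl12a at 89.4% to 96.0% of the regulatory light chains in both.

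Myl6, the essential light chain that every non-muscle heavy chain carries (ENSMUSG00000090841.2, chromosome 10, 128490860 to 128494145, minus strand), was the most abundant member per length, at 51.4 ± 18.0 CPM per kilobase (SD over 6 libraries), above 92.4% of the genes tested or level with them. Its level was 145, 185 and 115 CPM in CD61High of mice 1, 2 and 3 and 141, 270 and 127 CPM in CD61Low. The gates overlapped, the difference was 0.038, -0.54 and -0.14 on the log2 scale in the 3 mice, and the blocked estimate was -0.22 (SE 0.15, adjusted p = 0.458). Both libraries of mouse 2 had more Myl6 than the other 4 libraries, beside neutrophil markers at 6.83% and 11.1% of counts.

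Myl12a, a regulatory light chain of most non-muscle cells (ENSMUSG00000024048.15, chromosome 17, 70993656 to 71002878, minus strand), had 79.6, 110 and 79.9 CPM in CD61High and 78.3, 141 and 72.2 CPM in CD61Low of mice 1, 2 and 3. Mice 1 and 3 were nearly level between the gates, at 0.024 and 0.15 on the log2 scale, and mouse 2 was at -0.35. The blocked estimate of -0.061 (SE 0.15, adjusted p = 0.851) was above 0 with library totals alone (0.025) and without mouse 2 (0.070).

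Myl12b (ENSMUSG00000034868.9, chromosome 17, 70973133 to 70990890, minus strand), the neighbouring and near-identical gene, had 2.41, 5.76 and 5.54 CPM in CD61High and 6.13, 6.14 and 5.88 CPM in CD61Low. The gates did not overlap, but in mice 2 and 3 they were almost level (-0.091 and -0.086 on the log2 scale) and CD61High of mouse 1, with 56 reads, was the library far from the rest (-1.32). With Myh14 it was 1 of 2 members lower in CD61High without overlap, where 5.71% of the genes tested were, and 0 members were higher without overlap, against 8.62%. The blocked estimate was -0.49 (SE 0.35, adjusted p = 0.460).

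The counts of Myl12a and Myl12b understate both genes. A second annotated gene with the symbol Myl12b (ENSMUSG00000117098.1) runs through both, and a read that touches exons of more than 1 gene is left out as ambiguous. This second gene shares all of its 1201 exon bases with them and had 0 reads in every library. It covers all 516 coding bases of Myl12b without the stop codon and 346 of those of Myl12a (67.1%), so the Myl12b values come from non-coding exon sequence alone. Reads that map equally well to both near-identical genes are not counted either. The share of Myl12b among the regulatory light chains, 3.54% to 8.89% per kilobase of merged exons, is therefore a property of this counting and not a level to set against Myl12a.

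Myl9, the regulatory light chain of smooth muscle, megakaryocytes and platelets (ENSMUSG00000067818.6, chromosome 2, 156775420 to 156781658, plus strand), was nearly absent in mice 1 and 3. It had 1, 41 and 6 reads in CD61High of mice 1, 2 and 3 and 11, 60 and 9 reads in CD61Low, or 0.0430, 1.79 and 0.222 CPM against 0.401, 2.97 and 0.335 CPM. Most reads were from mouse 2 in both gates, and the gates overlapped. Its estimate without the block was -0.84 (SE 1.41, adjusted p = 0.940) and with it -1.14 (SE 0.63, adjusted p = 0.347). It was lower in CD61High within each of the 3 mice, and the blocked estimate was -0.66 without mouse 1 and -1.39 without mouse 3, also not called. Without CD61Low of mouse 2 alone the unblocked estimate was 0.88 (adjusted p = 0.822), and without mouse 2 Myl9 did not pass the filter on low counts. The sum of the smooth muscle and stromal list was also highest in mouse 2, at 227 and 291 CPM in CD61High and CD61Low. The largest part of it was the stromal gene Cxcl12 (152 and 154 CPM). Pdgfrb was highest in mouse 2 in CD61High (25.2 CPM) but lowest there in CD61Low (13.2 CPM, against 29.5 and 26.7 CPM in mice 1 and 3). Of the smooth muscle genes in the list, Acta2 was highest in mouse 2 (6.67 and 19.7 CPM), as was Des, near the floor (0.174 and 0.297 CPM). Tagln (at most 0.219 CPM in any library), Cnn1 (at most 0.182 CPM) and Myh11 (0 in 5 libraries) were too low to compare the mice. The part of such cells in the Myl9 reads was not tested.

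As shares of the regulatory light chains per kilobase of merged exons, Myl9 made up 0.151%, 4.22% and 0.734% in CD61High and 1.34%, 5.48% and 1.21% in CD61Low, and Myl12a 96.3%, 90.1% and 91.6% against 90.1%, 89.8% and 89.9%. These shares carry the counting limits of Myl12a and Myl12b given above, so the differences between gates are of counted reads. The differences of the mean shares were -0.970 percentage points for Myl9, 2.72 for Myl12a and -1.75 for Myl12b. Within mice 1, 2 and 3 they were -1.19, -1.25 and -0.473 for Myl9, 6.21, 0.296 and 1.66 for Myl12a and -5.02, 0.957 and -1.19 for Myl12b. Exact two-sided permutation tests gave p = 0.50, 0.20 and 0.40, each 0.50 after adjustment over the 3 shares. Exact sign-flip tests over the 3 mice gave 0.25, 0.25 and 0.50, where 0.25 is the smallest p possible.

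Mylk, the calmodulin-dependent kinase of the regulatory light chain (ENSMUSG00000022836.11, chromosome 16, 34745210 to 35002420, plus strand), had 27.8, 9.24 and 25.5 CPM in CD61High and 36.1, 16.3 and 43.6 CPM in CD61Low of mice 1, 2 and 3. Like Myh14 it was lower in CD61High in each mouse and lowest in mouse 2, but its gates overlapped through CD61Low of mouse 2. The differences were -0.38, -0.82 and -0.77 on the log2 scale. The blocked log2 fold change was -0.66 (SE 0.17) at an adjusted p of 0.115 in edgeR, against -0.62 (SE 0.53) at 0.906 without the block, and DESeq2 with the block called it (adjusted p = 0.0229). Antisense genes E130310I04Rik and Gm21691 cover 548 and 224 of its 11263 exon bases, and the unstranded counts leave out reads there: 30.3% to 37.1% of the Mylk reads in the strand-specific columns were missing from them. Summed over both strand columns, Mylk differed by -0.36, -0.71 and -0.83 on the log2 scale in the 3 mice.

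**Figure D3:**
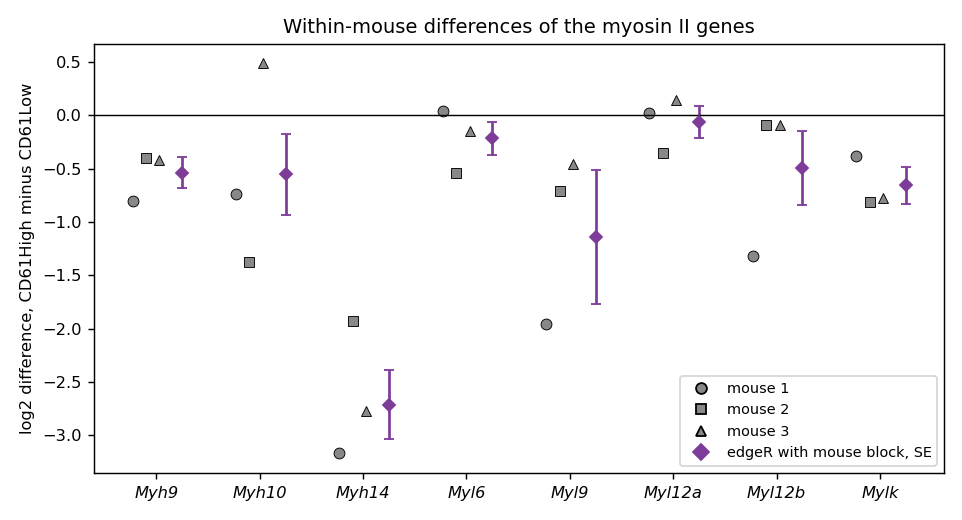
Difference of log2 CPM, CD61High minus CD61Low (y axis), for each gene in mice 1, 2 and 3 (grey symbols) with the blocked edgeR estimate and its SE (diamonds). Myh14 lies between -3.17 and -1.93 in all 3 mice, Myh9 and Mylk lie below 0 in each mouse at -0.82 to -0.38, and Myh10, Myl6 and Myl12a fall on both sides of 0.

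As a set, all 8 estimates were below 0 with and without the block. Their median was -0.54 with the block, where the median of all genes tested was -0.019, and -0.56 against -0.048 without it. Lower in CD61High in all 3 mice were 5 of the 8 (Myh9, Myh14, Myl9, Myl12b and Mylk), against 24.7% of the genes tested, and 0 of the 8 were higher in all 3, against 20.6%. At an unadjusted p under 0.05 with the block there were 3 of the 8 (Myh9, Myh14 and Mylk), where 20.8% of all genes passed and 12.8% were lower. The members share libraries and cells, so these counts describe the set and are not independent. The neutrophil, erythroid and monocyte markers lay lower in CD61High too, with blocked medians of -1.95, -1.25 and -1.73, and were lower in all 3 mice in 10 of 10, 8 of 8 and 5 of 6 genes; their part in the members' values was not tested.

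By level per kilobase of countable exon, averaged over the 6 libraries, the order was Myl6, Myl12a (34.7 ± 9.94 CPM per kilobase, SD), Myh9 (27.1 ± 9.19), Myl12b (2.61 ± 0.708), Mylk (2.52 ± 1.20), Myh14 (1.01 ± 1.07), Myh10 (1.01 ± 0.543) and Myl9 (0.826 ± 1.00). Myl6 was above Myl12a, Myh9 above Myl12b, and Mylk above Myh14, in 6 of 6 libraries, and Myl12a above Myh9 in 5. Myl12b and Mylk, Myh14 and Myh10, and Myh10 and Myl9 did not differ beyond their spread, with the first of each pair higher in 3, 2 and 4 of the 6 libraries. The order is of counted reads, and Myl12a, Myl12b and Mylk are undercounted as described. It differed between the gates: Myh14 was the lowest member in CD61High, at a mean of 0.247 CPM per kilobase below Myl9 (0.589) and Myh10 (0.777). In CD61Low it was above both, at 1.78 against 1.24 for Myh10 and 1.06 for Myl9.

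The genes fell into differing patterns over the 6 libraries, described here by Pearson's r of log2 CPM with no test. The libraries come from 3 animals whose shares of mature cell marker transcripts differ. Myl6 and Myl12a ran together (r = 0.95), as did Myh9 and Myl9 (0.93). Myh14 was most like Mylk (0.78) and unlike its fellow heavy chains (0.22 with Myh9, 0.079 with Myh10). Mylk ran against Myl12a (-0.79). Of 10675 genes with a mean of at least 5 CPM, those whose pattern was most like Myh14 were Nek6 (r = 0.994), Kmt5b (0.993), Mapk12 (0.991), Ficd (0.991) and Trim26 (0.990). Nek6 and Mapk12 are protein kinases and Kmt5b is a histone methyltransferase. Mapk12, the p38 gamma kinase, came closest to the size of the Myh14 difference, at 9.55, 6.10 and 9.05 CPM in CD61High and 39.1, 14.5 and 41.3 CPM in CD61Low, with a blocked log2 fold change of -1.83 (SE 0.24, adjusted p = 0.0512). The other 4 had blocked estimates of -0.78 to -0.47, and neither they nor Mapk12 were called. The gene most like each of the other members was Arrb1 for Myh9 (0.995), Tmem229b for Myh10 (0.984), Hebp1 for Myl6 (0.999), Map2k3 for Myl12a (0.999), Dnajc13 for Myl12b (0.995) and Cyp4f16 for Mylk (0.996). Myl9, with a mean under 5 CPM, was not matched in this way.

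**Figure D4:**
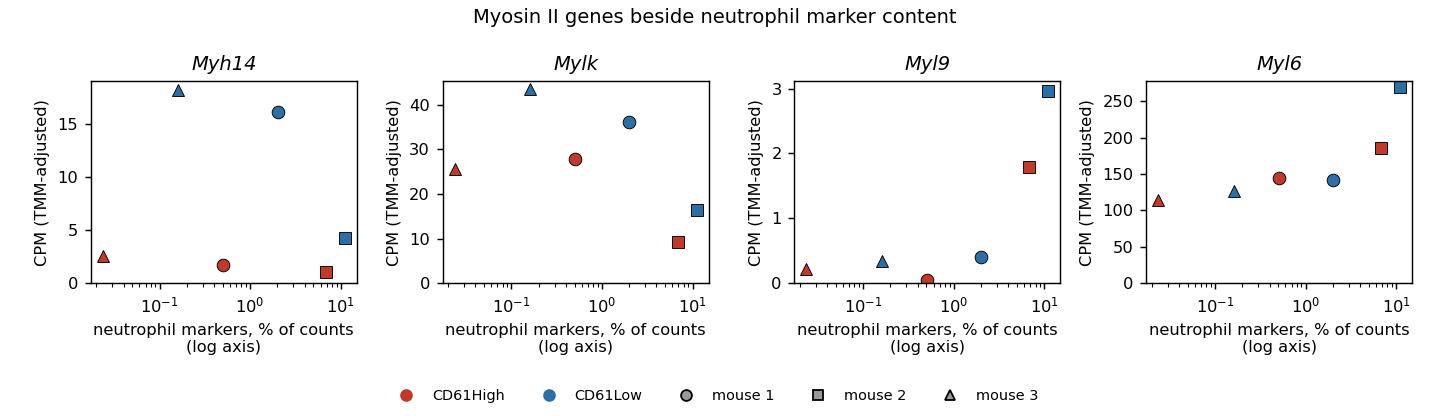
TMM-adjusted CPM (y axes, linear) of Myh14, Mylk, Myl9 and Myl6 against the share of counts taken by 10 neutrophil markers (x axes, percent, log scale), 1 point per library. Mouse 2 lies at 6.83% and 11.1% and holds the lowest Myh14 and Mylk and the highest Myl9 and Myl6 of each gate.

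Around the motor, 0 genes of the 4 actomyosin lists were called by edgeR, whether or not the mouse was a block. Without the block no gene of any kind was called, so that result says nothing about these lists. With the block only 0.256% of all genes tested were called. Of the 29 tested regulators of light chain phosphorylation, 4 were lower and 1 higher in CD61High at an unadjusted p under 0.05 with the block, where 12.8% and 8.01% of all genes were. Their median was -0.17. Ppp1r12b, a targeting subunit of myosin phosphatase, was at 2.19 to 4.58 CPM in CD61High and 5.91 to 7.77 CPM in CD61Low without overlap (-1.03, adjusted p = 0.123). Stk17b, a kinase of the death-associated family, was at -0.51 (adjusted p = 0.136).

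Among 24 genes of actin, tropomyosins and crosslinkers, 3 were lower and 0 higher at an unadjusted p under 0.05 with the block. Of all genes tested, 12.8% were lower and 8.01% higher at that threshold. The median of the list was -0.16. Cnn3, an actin-binding calponin, had 6.28, 20.4 and 7.20 CPM in CD61High and 17.1, 33.7 and 13.6 CPM in CD61Low, so that it was lower in each mouse while the gates overlapped (-1.02, SE 0.22, adjusted p = 0.0793). Lasp1, Svil and Cnn2, further actin-binding proteins, were at -0.52, -0.50 and -0.32 with adjusted p of 0.106, 0.119 and 0.278.

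The unconventional myosins carry cargo or tether membranes instead of forming filaments. Of 19 tested, 3 were lower and 0 higher at the same unadjusted threshold, where 12.8% and 8.01% of all genes were. Their median was -0.14. Myo1f, a myosin of leukocytes, had 114, 497 and 95.9 CPM in CD61High and 219, 784 and 104 CPM in CD61Low, highest in mouse 2 beside its neutrophil markers (-0.58, adjusted p = 0.156). Myo6, which moves toward the minus end of actin, had 36.7, 19.2 and 30.5 CPM in CD61High and 63.4, 18.6 and 58.4 CPM in CD61Low. It was lower in mice 1 and 3 and level in mouse 2, with a blocked estimate of -0.57 (adjusted p = 0.219) and a call without mouse 2 (adjusted p = 0.0359). Myo9a and Myo9b were at -0.54 and -0.32 (adjusted p = 0.221 and 0.288).

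Of the 22 muscle myosin chains and kinases, 7 had 0 reads in all libraries and 7 passed the filter. Of those that passed, 1 was lower and 1 higher at an unadjusted p under 0.05 with the block. Of all genes tested, 12.8% and 8.01% were, and the median of the list was -0.30. The 3 with a mean of at least 5 CPM were Mylk3, the cardiac light chain kinase, at 2.55 to 29.8 CPM in CD61High and 3.05 to 56.8 CPM in CD61Low (-0.72, adjusted p = 0.141), and the light chains Myl10 (-0.30, adjusted p = 0.522) and Mylpf (-0.0496, adjusted p = 0.947).

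**Figure D5:**
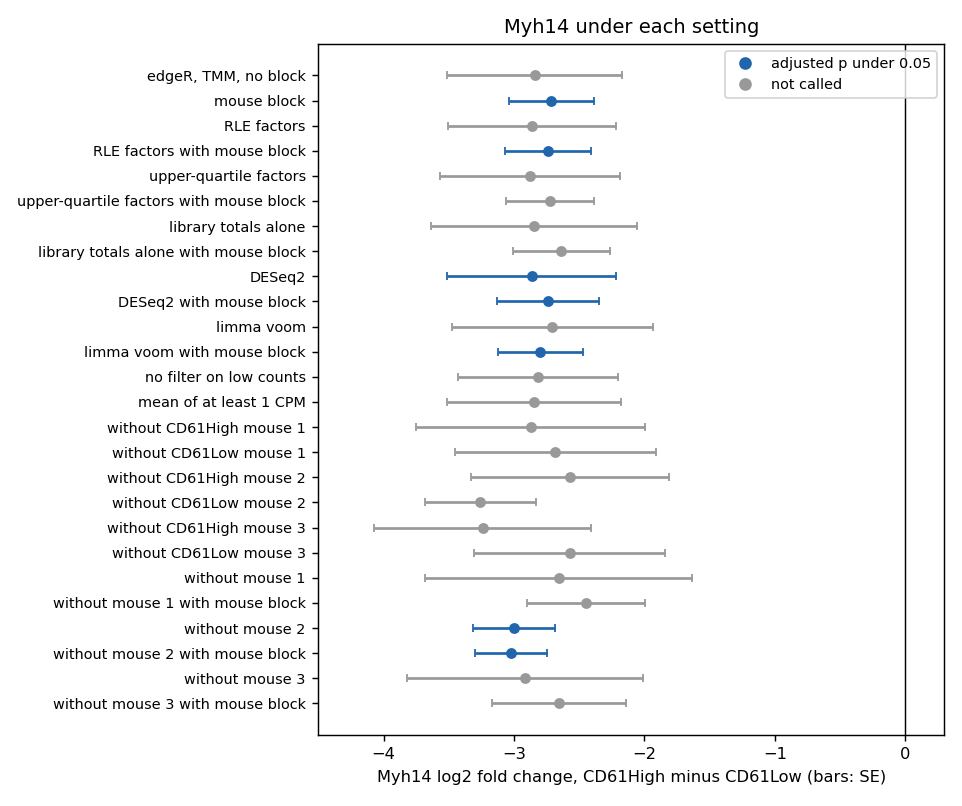
Log2 fold change of Myh14, CD61High minus CD61Low (x axis, bars are SE), in the edgeR test without a block and under each of 25 other settings (rows), where the mouse block is the mouse number as a term; blue points have an adjusted p under 0.05. The estimates run from -3.26 to -2.45, and 7 of the 25 other settings called the gene.

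Across the 25 other settings the Myh14 estimate lay between -3.26 (without CD61Low of mouse 2) and -2.45 (without mouse 1, with the block), and 7 of them called it. These were the block with TMM or relative log expression factors, DESeq2 with and without the block, limma voom with the block (2.13% of genes called), and both fits without mouse 2 (0.855% of genes called without the block). Myh9, Myh10, Myl12b and Mylk also stayed below 0 under all 25, where Myh9 and Mylk were called once each, by DESeq2 with the block, which called 1566 genes (10.0%).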

How the data were processed

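The authors deposited counts of reads per gene, 1 STAR gene count table per library and 1 table of the series. STAR 2.7, MultiQC and edgeR were used per the submitters' processing notes; the genome build and gene models were not given in the sources used here. All 55450 gene identifiers matched GENCODE M21 (GRCm38), which gave symbols, positions and exon lengths; the series table (17500 genes, summed count of at least 31) had 0 values that differ. Unstranded counts were used, since 49.9% to 50.0% of stranded counts were on the first strand and, per the labels' protocols, SMART-Seq v4 and Nextera XT kits were used. Lines naming no gene were left out: unmapped reads were 4.36% to 10.9%, multimapping 10.0% to 15.6%, outside genes 2.88% to 4.21% and ambiguous 3.55% to 4.37%. Intervals and floors cover counting error only, as reads carry no molecular identifiers.

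The test was edgeR's robust quasi-likelihood F-test (edgeR 4.0.16, R 4.3.3, TMM factors, filterByExpr by group, two-sided, Benjamini-Hochberg over 15610 genes), called at an adjusted p under 0.05 and checked on simulated data. The simulated counts had differences between mice only for the blocked test. The check of the unblocked test therefore does not cover such differences. SEs come from the F statistic, and log2 CPM carries a prior count of 2. The primary model has no block; the block takes the mouse number of the titles. Deviations from the group means correlated at 0.236, 0.806 and 0.761 between the libraries of mice 1, 2 and 3, and at -0.823 to 0.374 between mice. DESeq2 1.42.0 and limma 3.58.1 were alternatives, with other scaling factors and filters, libraries or mice left out and other lengths for ratios.

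Members and lists were chosen with earlier results of these data known. Named beside the 8 members were up to 4 genes per pathway list with the smallest blocked p and a mean of at least 5 CPM, and the genes most like the members; 2 genes so chosen are not reported here; Acta2, Gp6 and other markers were singled out after their values were seen. All 168 list symbols matched.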

Additional observations from a re-analysis of the deposited data

How the results depend on the processing

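Without a block the test called 0 genes and 0 members. The mouse as a replicate block called 40 genes (1 member, Myh14), 88 with relative log expression factors (1 member), 8 with upper-quartile factors (0 members) and 0 with library totals alone. DESeq2 called 230 genes without and 1566 with the block (1 and 3 members) and limma voom 0 and 333 (0 and 1). Leaving out 1 library called 0 genes each time; leaving out a mouse called 0 to 133 genes without the block and 0, 742 and 7 with it, for mice 1, 2 and 3, with Myh14 the only member called, without mouse 2. In the fits without 1 library of a gate, the remaining libraries set the spread.

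Signs turned for Myl12a (0.017 with library totals, 0.025 with these and the block, 0.26 without CD61Low of mouse 2, 0.069 and 0.070 without mouse 2), Myl6 (0.15) and Myl9 (0.88), the last pair without CD61Low of mouse 2. Over single libraries left out they ranged from -0.29 to 0.26, -0.47 to 0.15 and -3.14 to 0.88. Of the ratios, Myh10 to Myh9 turned to 0.24 without either library of mouse 2 and 0.072 without the CD61Low library of mouse 1 (range -0.33 to 0.24), and the Myl9 share to 0.432 percentage points without CD61Low of mouse 2 (range -2.23 to 0.432). The cause was not tested. Leaving out single libraries moved Myh14 to Myh9 between -3.03 and -1.53, Myh14 to Myh10 between -3.27 and -1.40, the Myl12a share between 0.889 and 4.01 and the Myl12b share between -3.08 and -0.695 points. The block changed no other member's call in edgeR. Low counts limit Myl9, with 1 to 60 reads per library.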
